A study of Mus musculus with 6 samples.

Results

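The genes described here encode proteins of the synaptic vesicle, measured by RNA sequencing in mouse striatum. They are the 3 synapsins (Syn1, Syn2 and Syn3), the 3 SV2 glycoproteins (Sv2a, Sv2b and Sv2c), synaptophysin (Syp) and beta-synuclein (Sncb). They were chosen by gene symbol, and all 8 were found among the 45777 genes of the authors' deposited count table. All 8 also passed a filter on low counts that left 17874 genes. Striatal tissue came from offspring of the outbred ICR strain at 6 weeks of age. In the methylphenidate-sired group, the father had received methylphenidate, a blocker of dopamine and noradrenaline reuptake, at 15 mg/kg subcutaneously on each of 21 days from 6 weeks of age. In the saline-sired group the father had received saline at 10 mL/kg on the same schedule. All mothers were untreated with the drug. The labels list 2 females and 1 male among the 3 offspring of either group, and nothing in the sources used here says how many sires or litters they came from. The p-values therefore measure only the spread between these 6 libraries, and littermates may be among them.

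Synaptic vesicles store neurotransmitter in the axon terminal and release it when the terminal is depolarised. Synapsins are phosphoproteins on the vesicle surface that hold vesicles in a cluster, and kinases release them from it. SV2 proteins span the vesicle membrane many times, and SV2A is the binding site of the antiepileptic drug levetiracetam. Synaptophysin is an abundant membrane protein of the vesicle that binds synaptobrevin, and beta-synuclein is a soluble protein of the terminal. In the striatum the terminals belong to cortical and thalamic axons, dopamine axons, interneurons and the collaterals of the medium spiny neurons. Messenger RNA of a terminal protein lies mostly in the cell body, so striatal tissue holds the transcripts of striatal neurons and of any neighbouring tissue in the dissection.

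The promoters of 4 members are shown because these genes show the range of patterns across the libraries. Syn1 and Sncb were among the members with higher values in the methylphenidate-sired group, Sv2b had the widest spread and Sv2c nearly the narrowest. The sequences come from RefSeq (GRCm38.p6, the assembly that mm10 names), 5′ to 3′ on the strand of the gene. They cover up to 250 bases before the outermost listed RefSeq start, without bases of annotated exons. For Sncb this start lies inside the gene span given below, which ends at 54766622. The last bases of the Sncb window, with its GC box, therefore lie within that span. Capitals mark matches on either strand to TGACGTCA (the cAMP response element), the core of RE1 (the site of the repressor REST, which silences neuronal genes in other cells), the GC box (GGGCGG, bound by factors of the Sp family) or the TATA box, which was searched as the letters TATAAA.
Syn1, chrX:20921005-20921168, minus strand: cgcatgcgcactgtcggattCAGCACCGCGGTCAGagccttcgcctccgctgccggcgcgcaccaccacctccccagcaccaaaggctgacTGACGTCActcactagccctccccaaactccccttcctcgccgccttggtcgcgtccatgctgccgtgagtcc
Sncb, chr13:54766596-54766845, minus strand: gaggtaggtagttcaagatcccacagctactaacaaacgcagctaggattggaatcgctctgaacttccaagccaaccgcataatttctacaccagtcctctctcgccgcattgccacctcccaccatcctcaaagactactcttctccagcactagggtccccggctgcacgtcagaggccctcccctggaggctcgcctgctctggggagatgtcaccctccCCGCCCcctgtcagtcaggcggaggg
Sv2b, chr7:75309263-75309512, minus strand: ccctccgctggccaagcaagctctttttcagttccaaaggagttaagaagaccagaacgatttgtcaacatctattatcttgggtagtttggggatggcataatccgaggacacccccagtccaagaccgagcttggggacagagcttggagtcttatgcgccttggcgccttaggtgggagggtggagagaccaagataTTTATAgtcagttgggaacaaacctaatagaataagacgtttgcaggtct
Sv2c, chr13:96132578-96132827, minus strand: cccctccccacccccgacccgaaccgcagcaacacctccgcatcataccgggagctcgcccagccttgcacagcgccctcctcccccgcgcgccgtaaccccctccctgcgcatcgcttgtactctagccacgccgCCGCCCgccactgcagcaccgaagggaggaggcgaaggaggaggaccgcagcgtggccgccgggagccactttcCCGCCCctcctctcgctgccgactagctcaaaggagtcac

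Matches were counted over the full 250 bases before a start, annotated exon bases included. In these windows Syn1 alone of the 7 members with a promoter entry held an RE1 core, 230 bases before its RefSeq start. It alone also held a cAMP response element, 159 bases before that start. Over all 32851 promoter windows of 250 bases, 0.0517% held this RE1 core and 1.55% this cAMP response element. A GC box, which 32.7% of all windows held, lay in those of Sv2a, Sv2c, Syp and Sncb. It also lay in 1 of the 2 windows of Syn2 and in none of the 4 windows of Sv2b. The Syp matches lay within the 109 bases of its window that are annotated exon. Sv2b had a match to the TATA box letters in 2 of its 4 windows, against 12.4% of all windows. Both Sv2b matches lay on the strand opposite to the gene, 50 and 232 bases before their starts. The Syn1 and Sv2c windows held 27 and 26 CpG dinucleotides, the outermost window of Sv2b held 7, and the median of all windows was 6. These are matches of letters, and the data measure no binding at them. Syn3 had no entry.

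Total counts lay between 31360042 and 38844724 per library, and each library keeps the number of its column: 3, 4 and 5 for saline-sired offspring (saline libraries), 2, 4 and 6 for methylphenidate-sired offspring (methylphenidate libraries). The numbers do not tie a library to a labelled animal. Levels of single genes are in counts-per-million (CPM) of the TMM-scaled library size, and sums over several genes are in CPM of the total counts. Y-linked transcripts summed to 172 and 181 CPM in the 2 libraries numbered 4 and at most 0.212 in the other 4 libraries, so each group held 1 library of this kind. Saline libraries 3 and 4 differed from the remaining 4 in choroid plexus and cortical markers, and values without both are given where they matter. Leaving both out was chosen after seeing the data and leaves saline library 5 alone in its group. Of 17874 genes tested, 4 passed an adjusted p of 0.05 (edgeR quasi-likelihood test, Benjamini-Hochberg over all genes), or 0.0224%, all lower in the methylphenidate-sired group, and none of them is a member.

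The comparison asked how expression in offspring striatum differed with the father's treatment. Of the 8 vesicle genes, 7 had higher and 1 had lower values in the methylphenidate-sired group, with fold changes from 0.96 (Sv2c) to 1.35 (Sv2b), while 47% of all genes had positive log2 fold changes. In 5 members (Syn1, Syn2, Sv2b, Syp and Sncb) every methylphenidate-sired library lay above every saline-sired one, while the groups did not overlap in that direction in 7.84% of all genes, in the other in 7.01% and in either in 14.8%. None of the 8 passed the edgeR test over all genes. At an unadjusted p under 0.05 there were 4 (Syn1, Syn2, Syp and Sncb), all higher, against 9.02% of all genes in both directions, 5.07% higher and 3.95% lower. DESeq2 called 3 members, Syn1, Syp and Sncb, among 175 genes (1.22% of those given an adjusted p, and 0.954% called as higher), and limma-voom called 0 members and 0.0224% of all genes, with 5 members at an unadjusted p under 0.05, all higher, against 9.23% of all genes in both directions and 5.34% higher. The median log2 fold change of the 8 was 0.32, beside -0.01 for all genes tested. It was 0.19 without saline library 4 and also without both libraries numbered 4, and 0.10 without saline libraries 3 and 4. In the 5 members whose groups did not overlap, saline libraries 3 and 4 both lay below saline library 5. Leaving both out therefore had to lower those fold changes. In bulk tissue, fewer cells of a type and less RNA per cell cannot be told apart, and this holds for every value below.

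**Figure D1:**
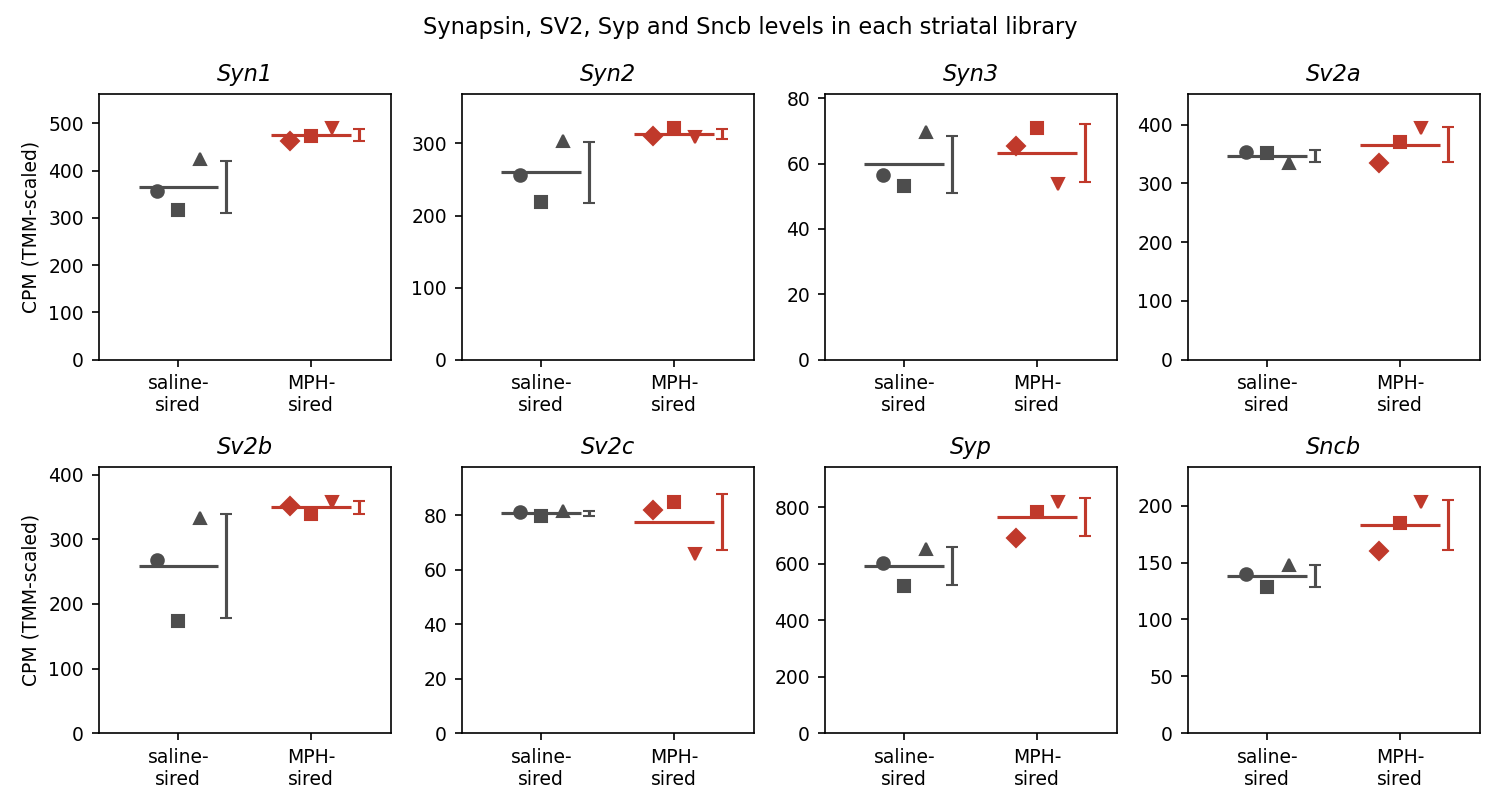
Level of each vesicle gene in each striatal library, in TMM-scaled counts-per-million (CPM, vertical axis from 0), with saline-sired libraries in grey and methylphenidate-sired (MPH) libraries in red. Point shapes give the library number (circle 3, square 4, triangle 5, diamond 2, inverted triangle 6), horizontal lines are means and bars 1 SD (n = 3), and the 3 red points lie above the 3 grey ones in Syn1, Syn2, Sv2b, Syp and Sncb.

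Among the synapsins, Syn1 and Syn2 were higher in the methylphenidate-sired libraries and Syn3 was not separated. Syn1 (Gene ID 20964, chromosome X, 20860511 to 20920918, mm10), the main synapsin of mature terminals, had 356, 316 and 425 CPM in the saline-sired group (numbers 3, 4 and 5, the order used throughout), against 463, 474 and 490 CPM in numbers 2, 4 and 6 of the methylphenidate-sired group. The groups did not overlap, with 38.7 CPM between the highest saline-sired and the lowest methylphenidate-sired library, and the methylphenidate-sired libraries lay close together. The means were 366 ± 54.9 and 476 ± 13.4 CPM (SD, n = 3), which is 0.38 on the log2 scale (SE 0.10, edgeR adjusted p = 0.432, DESeq2 adjusted p = 0.0227). Without saline libraries 3 and 4 it was 0.16.

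Syn2 (Gene ID 20965, chromosome 6, 115134902 to 115282626), the second widely expressed synapsin, was at 257, 219 and 304 CPM in saline-sired offspring and at 310, 321 and 309 CPM in methylphenidate-sired offspring. The groups did not overlap, but saline library 5 came within 5.0 CPM of the lowest methylphenidate-sired one. The log2 fold change was 0.27 (SE 0.11, edgeR adjusted p = 0.512, DESeq2 adjusted p = 0.270). It was 0.16 without saline library 4, 0.41 without saline library 5, 0.15 without both libraries numbered 4, and 0.04 without saline libraries 3 and 4.

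Syn3 (Gene ID 27204, chromosome 10, 86048746 to 86498926), the synapsin known mainly from developing neurons, was at 56.5, 53.3 and 69.6 CPM in saline-sired offspring and at 65.3, 70.8 and 53.6 CPM in methylphenidate-sired offspring. The groups overlapped across nearly their whole range. The log2 fold change was 0.08 (SE 0.13, edgeR adjusted p = 0.882), and it was 0.0053 without saline library 4 and 0.22 without saline library 5. The sign turned without saline libraries 3 and 4 (-0.14) and without both libraries numbered 4 (-0.08). The other leave-outs that moved it by over 1.5 times gave 0.04 without saline library 3, 0.0050 without methylphenidate library 4 and 0.19 without methylphenidate library 6.

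Each synapsin gene holds a gene of a tissue inhibitor of metalloproteinases (TIMP, secreted inhibitors of matrix enzymes) inside it on the other strand. Timp1 lies in Syn1, Timp4 in Syn2 and Timp3 in Syn3. No source used here says whether the authors' counting used strand. In GENCODE M21, 1733 bases of annotated Syn3 exons (14.1%) overlap Timp3 exons, and 90 bases of Syn2 exons (1.28%) overlap Timp4 exons, so the count of Syn3 is uncertain. Timp3 was at 114, 131 and 105 CPM in saline-sired offspring and at 96.1, 106 and 108 CPM in methylphenidate-sired offspring, above Syn3 in every library. Its log2 fold change was -0.17 (SE 0.09, edgeR adjusted p = 0.610), opposite in sign to that of Syn3. Timp4 had -0.08 (SE 0.14, edgeR adjusted p = 0.899), and Timp1 had at most 2 counts in a library.

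The 3 SV2 genes differed in their patterns. Sv2a (Gene ID 64051, chromosome 3, 96181227 to 96195183), the form found at nearly all synapses, was at 354, 352 and 335 CPM in saline-sired offspring and at 334, 370 and 394 CPM in methylphenidate-sired offspring. The lowest value belonged to methylphenidate library 2 and the groups overlapped. The log2 fold change was 0.08 (SE 0.07, edgeR adjusted p = 0.788). It was 0.02 without methylphenidate library 6, 0.16 without methylphenidate library 2 and 0.13 without saline libraries 3 and 4.

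Sv2b (Gene ID 64176, chromosome 7, 75114894 to 75309262), the form known from cortex and hippocampus, was at 268, 173 and 333 CPM in saline-sired offspring and at 352, 339 and 358 CPM in methylphenidate-sired offspring. Its saline-sired libraries spread widely, with a coefficient of variation of 31.2% against 2.88% in the methylphenidate-sired group, and saline library 5 lay 5.1 CPM below the methylphenidate-sired range. The highest library was 2.07 times the lowest, the widest range of the 8 genes. Sv2b had the largest fold change of the 8 and also the largest error (log2 fold change 0.44, SE 0.20, edgeR adjusted p = 0.562, DESeq2 adjusted p = 0.650). Without saline library 4 it was 0.22, without saline library 5 it was 0.68, without both libraries numbered 4 it was 0.24, and without saline libraries 3 and 4 it was 0.07.

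Sv2c (Gene ID 75209, chromosome 13, 95959443 to 96132577), the form enriched in the basal ganglia, was at 81.1, 79.8 and 81.6 CPM in saline-sired offspring and at 81.9, 85.0 and 65.8 CPM in methylphenidate-sired offspring. The other libraries lay within a narrow band and methylphenidate library 6 lay below it. The log2 fold change was -0.06 (SE 0.09, edgeR adjusted p = 0.883). Its sign turned without methylphenidate library 6 (0.05), and it was -0.12 without methylphenidate library 4 and -0.14 without both libraries numbered 4.

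Syp and Sncb were the remaining members with higher values. Syp (Gene ID 20977, chromosome X, 7638580 to 7653256) was at 603, 522 and 654 CPM in saline-sired offspring and at 690, 784 and 820 CPM in methylphenidate-sired offspring. The groups did not overlap, and saline library 4 was lowest. The means were 593 ± 66.4 and 765 ± 67.2 CPM (SD, n = 3), which is 0.37 on the log2 scale (SE 0.10, edgeR adjusted p = 0.431, DESeq2 adjusted p = 0.0227). Without saline libraries 3 and 4 it was 0.22. An annotated antisense gene, Gm14703, overlaps 875 bases (16.8%) of Syp exons, so the Syp count is uncertain without strand.

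Sncb (Gene ID 104069, chromosome 13, 54758860 to 54766622) was at 140, 128 and 148 CPM in saline-sired offspring and at 160, 185 and 204 CPM in methylphenidate-sired offspring. The saline-sired libraries lay close together, below all 3 of the other group. The means were 139 ± 9.64 and 183 ± 21.8 CPM (SD, n = 3), which is 0.40 on the log2 scale (SE 0.09, edgeR adjusted p = 0.400, DESeq2 adjusted p = 0.0123). Sncb had the lowest unadjusted p of the 8, and its fold change stayed within 1.5 times of this value under every alternative run.

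The DESeq2 calls were not kept in every leave-out of 1 library, and each leave-out also had fewer samples. All 3 held without saline library 5, where Syn2 and Sv2b were called as well (DESeq2 adjusted p = 0.000444 and 0.000815), and there the share of all genes called as higher was also larger, at 2.93%. Syp and Sncb also held without methylphenidate library 2 (DESeq2 adjusted p = 0.00568 and 0.000377), where Syn1 did not (0.0671) and 0.929% of all genes were called as higher. Without saline library 4 the DESeq2 adjusted p-values of Syn1, Syp and Sncb were 0.0984, 0.111 and 0.0986, and without saline library 3 they were 0.199, 0.131 and 0.0984. Without methylphenidate library 4 they were 0.240, 0.318 and 0.207, and without methylphenidate library 6 they were 0.373, 0.425 and 0.325. The DESeq2 log2 fold changes without methylphenidate library 4 were 0.39, 0.35 and 0.40, beside 0.38, 0.37 and 0.40 with all libraries. For the leave-outs where all 3 calls were lost, the share of all genes called was not computed. Whether the library left out or the smaller number of samples mattered was not tested.

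**Figure D2:**
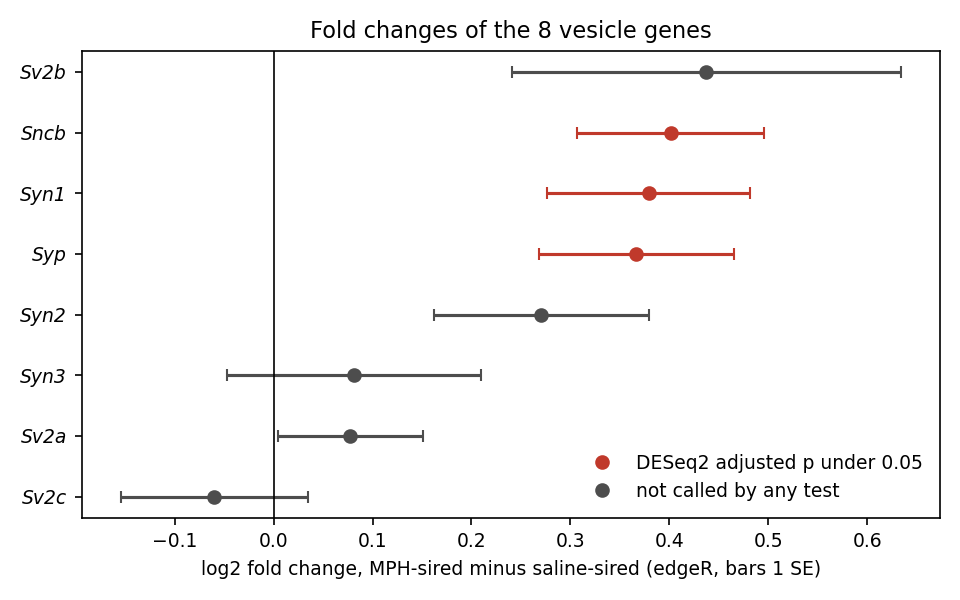
Log2 fold change of each vesicle gene, methylphenidate-sired minus saline-sired (edgeR, points), with bars of 1 SE; red marks the genes DESeq2 called. The 7 positive values run from 0.08 (Sv2a and Syn3) to 0.44 (Sv2b), and Sv2c lies at -0.06.

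Levels were compared between genes per kilobase of merged GENCODE exons, as CPM per kilobase. Over the 6 libraries Syp and Syn1 were highest, at 130 ± 21.4 and 128 ± 21.2 CPM per kilobase (SD, n = 6), and their ranges overlapped. Sv2a (76.9 ± 4.91) and Sncb (74.9 ± 13.3) followed and also overlapped. Syn2 (40.8 ± 5.69) and Sv2b (36.3 ± 8.56) overlapped in range, yet Syn2 was above Sv2b in all 6 libraries. Sv2c (8.16 ± 0.70) and Syn3 (5.01 ± 0.65) were lowest and did not overlap. The order depended on the length used. Per kilobase of the longest transcript Syp stood alone at 239 ± 39.2 CPM, Sncb (119 ± 21.2) lay above Sv2a (82.3 ± 5.25), and Syn3 (12.9 ± 1.68) lay above Sv2c (8.70 ± 0.74).

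Within the synapsins, the shares of Syn1 and Syn2 in the summed CPM per kilobase of merged exons varied little. Syn1 made up 72.4% to 75.5%, Syn2 22.3% to 24.5% and Syn3 2.22% to 3.30% in the 6 libraries. The shares depend on the length used, and per longest transcript they were 58.2% to 62.2%, 33.2% to 35.5% and 4.65% to 6.76%. The log2 ratio of Syn1 to Syn2 was 1.57, 1.62 and 1.58 in the saline-sired group, against 1.67, 1.65 and 1.76 in the methylphenidate-sired group. The groups did not overlap and lay 0.11 apart (SE 0.04, two-sided exact permutation p = 0.1, adjusted p = 0.3). Here 0.1 is the smallest p that 3 against 3 libraries can give, and p-values were adjusted over 6 paralog ratios, so none could pass. The log2 ratio of Syn1 to Syn3 differed by 0.31 (SE 0.14, exact permutation p = 0.1, adjusted p = 0.3), and by 0.17 without methylphenidate library 6. In this ratio too the groups did not overlap. The log2 ratio of Syn2 to Syn3 differed by 0.20 (SE 0.11, exact permutation p = 0.2), and by 0.10 without methylphenidate library 6. Shares and ratios with Syn3 rest on its uncertain count, since its exons overlap those of Timp3.

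The makeup of SV2 varied more, through Sv2b. Sv2b made up 27.4%, 19.7% and 33.0% of the summed SV2 level (CPM per kilobase) in the saline-sired group, against 34.3%, 31.3% and 31.8% in the methylphenidate-sired group. Saline library 4 had the lowest share, and saline library 5 lay inside the methylphenidate-sired range. Sv2a took 58.8% to 72.4% and Sv2c 5.04% to 7.86%. Per longest transcript Sv2b took 25.8% to 42.5%, Sv2a 51.5% to 66.9% and Sv2c 4.44% to 7.23%. The log2 ratio of Sv2b to Sv2c differed by 0.56 (SE 0.30, two-sided exact permutation p = 0.2, adjusted p = 0.3), and by 0.30 without saline library 4. The log2 ratio of Sv2a to Sv2b differed by -0.41 (SE 0.30, exact permutation p = 0.3), by -0.14 without saline library 4 and by -0.65 without saline library 5. For Sv2a to Sv2c the difference was 0.14 (SE 0.17, exact permutation p = 0.9), 0.25 without methylphenidate library 2 and of the opposite sign without methylphenidate library 6 (-0.03). These p-values do not show that the SV2 genes changed alike.

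**Figure D3:**
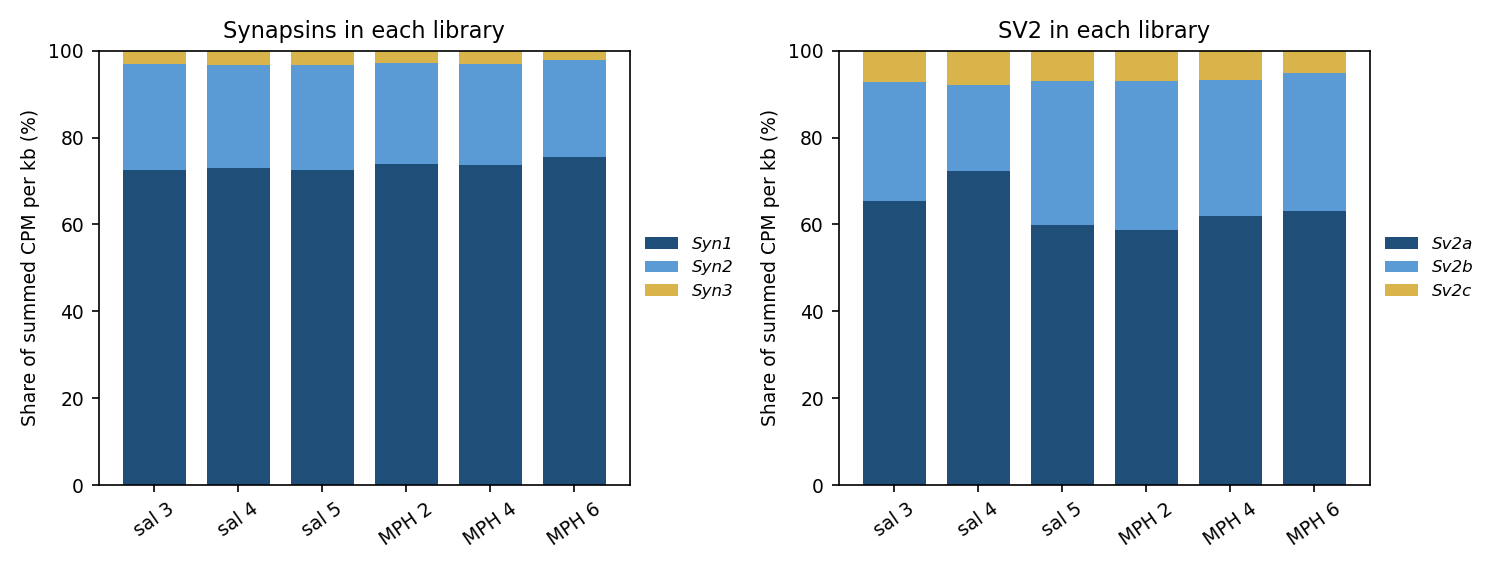
Stacked bars give each paralog's share (%) of the summed CPM per kilobase of merged exons in each library, saline-sired (sal) 3, 4 and 5 and methylphenidate-sired (MPH) 2, 4 and 6, for the synapsins (left) and SV2 (right). On these lengths Syn1 stays between 72.4% and 75.5%, while Sv2b runs from 19.7% in saline library 4 to 34.3% in methylphenidate library 2.

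Levels of the 8 genes followed the library as well as the group. Saline library 4 was the lowest of all 6 in 6 of the 8 genes, and methylphenidate library 6 was the highest in 5. Across the 6 libraries, which share the group difference, log2 CPM of Syn1 correlated with that of Syn2 (Pearson r = 0.97), Syp (0.96), Sv2b (0.94) and Sncb (0.90). Sv2a had an r of 0.32 to Syn1, 0.57 to Syp and 0.70 to Sncb. Sv2c had negative r to all of Syn1 (-0.28), Syp (-0.40), Sncb (-0.52) and Sv2a (-0.70). Syn3 had an r of 0.50 to Syn1 and 0.63 to Sv2c.

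Other genes of the vesicle mostly had smaller positive values, none past the edgeR test. Of 24 other synaptic vesicle proteins, all tested, 19 had positive and 5 negative log2 fold changes, with a median of 0.14, beside -0.01 for all genes tested. None passed the edgeR test, 5 were at an unadjusted p under 0.05, all higher, against 5.07% of all genes. DESeq2 called 2, Rph3a and Vamp2, both higher, against 0.954% of the genes given an adjusted p. The groups did not overlap in 9 of the 24, all higher, against 7.84% of all genes. Rph3a, the Rab3 effector rabphilin, was at 358, 358 and 382 CPM in saline-sired offspring and at 444, 483 and 444 CPM in methylphenidate-sired offspring (log2 fold change 0.32, SE 0.06, edgeR adjusted p = 0.376). Vamp2, the vesicle SNARE, had 0.22 (SE 0.06, edgeR adjusted p = 0.452). The vesicular transporter genes went both ways. Slc17a7, which loads glutamate in cortical neurons, had 0.88 (SE 0.29, edgeR adjusted p = 0.470). Slc32a1, which loads GABA and glycine, had -0.18 (SE 0.09). Slc18a2, which loads dopamine, had -0.88 (SE 0.58), but at only 0.40 to 2.32 CPM and with overlapping groups. Between these extremes also lay Slc17a6 (0.22), Slc6a17 (0.18), Slc18a3 (-0.03) and Slc17a8 (-0.08). All of these transporters but Slc17a7 were chosen for naming after their values were seen. The list's median was 0.09 without saline library 4 and 0.08 without both libraries numbered 4.

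The proton pump that acidifies the vesicle had 13 of 16 subunit genes positive (median log2 fold change 0.09), none past the edgeR test, 3 at an unadjusted p under 0.05 and 1 called by DESeq2. Atp6v1a, a catalytic subunit, had 0.25 (SE 0.07, edgeR adjusted p = 0.433), and Atp6v1c1 had 0.17 (SE 0.06). The median was 0.05 without saline library 4. Of 19 genes of vesicle endocytosis, 16 were positive (median 0.06), none passed the edgeR test, 6 were at an unadjusted p under 0.05 and DESeq2 called 3. Dnm1, the dynamin of synaptic vesicle fission, had 0.28 (SE 0.07, edgeR adjusted p = 0.428), and Amph, amphiphysin, had 0.29 (SE 0.07, edgeR adjusted p = 0.412). The median was 0.10 without methylphenidate library 2. Of 16 genes for kinases and the phosphatase that act on synapsins, 12 were positive (median 0.07), none passed the edgeR test, 3 were at an unadjusted p under 0.05 and DESeq2 called 1. That gene was Camk2g, a subunit of calcium/calmodulin kinase II, at 0.43 (SE 0.08, edgeR adjusted p = 0.343), followed by Camk2d at 0.28 (SE 0.10). This median was 0.03 without saline library 3 and 0.13 without saline library 5. It was 0.04 without both libraries numbered 4 and -0.02 without saline libraries 3 and 4. In these lists every gene at that unadjusted p was higher, against 5.07% of all genes. The genes DESeq2 called were also all higher, against 0.954% of the genes given an adjusted p.

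Markers of cortical excitatory neurons had higher values in the same libraries as the vesicle genes. All 12 listed markers had positive log2 fold changes (median 0.86) and 0 passed the edgeR test. At an unadjusted p under 0.05 there were 10, against 5.07% of all genes higher. DESeq2 called 2, against 0.954% of genes given an adjusted p called as higher. Among the 12 markers the groups did not overlap in 9, all higher, against 7.84% of all genes. Their summed level ran from 467 to 961 CPM in the saline-sired and from 1159 to 1336 CPM in methylphenidate-sired offspring, and none of the 12 was at 0. Slc17a7, the vesicular glutamate transporter gene of these cells, had 337, 163 and 438 CPM in the saline-sired group against 540, 570 and 616 CPM in the methylphenidate-sired group, with library 4 lowest among the former. Neurod2 and Nptx1 had the lowest p-values of the list, with log2 fold changes of 0.95 and 0.69. The mean centred log2 CPM of the markers was -0.30, -1.13 and 0.13 in the saline-sired and 0.31, 0.40 and 0.58 in the methylphenidate-sired libraries. That of the 8 vesicle genes was -0.12, -0.30 and 0.04, and 0.08, 0.17 and 0.12, in the same order. Saline library 4 was lowest and library 5 highest of its group in both. The part of these cells in the vesicle gene values was not tested.

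Medium spiny neurons are the output cells of the striatum, and their markers had lower values in the methylphenidate-sired group. All 12 had negative log2 fold changes (median -0.20) and 0 passed the edgeR test. At an unadjusted p under 0.05 there were 8, against 3.95% of all genes lower. DESeq2 called 3, against 0.265% of genes given an adjusted p called as lower. Among the 12 markers the groups did not overlap in 9, all lower, against 7.01% of all genes. Their summed level was 9754 to 10376 CPM in the saline-sired and 8120 to 9048 CPM in methylphenidate-sired offspring, and none was at 0, so the labelled tissue carried its defining markers. Methylphenidate library 6, lowest in Sv2c, was also the lowest in this list (mean centred log2 CPM -0.22). Methylphenidate library 4, highest in Sv2c, was the next lowest in this list (-0.07). Tac1 and Scn4b had the lowest p-values of the list, with log2 fold changes of -0.32 and -0.29. Ppp1r1b, which encodes DARPP-32, was at 1652, 1898 and 1784 CPM in saline-sired offspring and at 1558, 1651 and 1376 CPM in methylphenidate-sired offspring, so its groups met at their edges. The part of these cells in the vesicle gene values was not tested either.

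**Figure D4:**
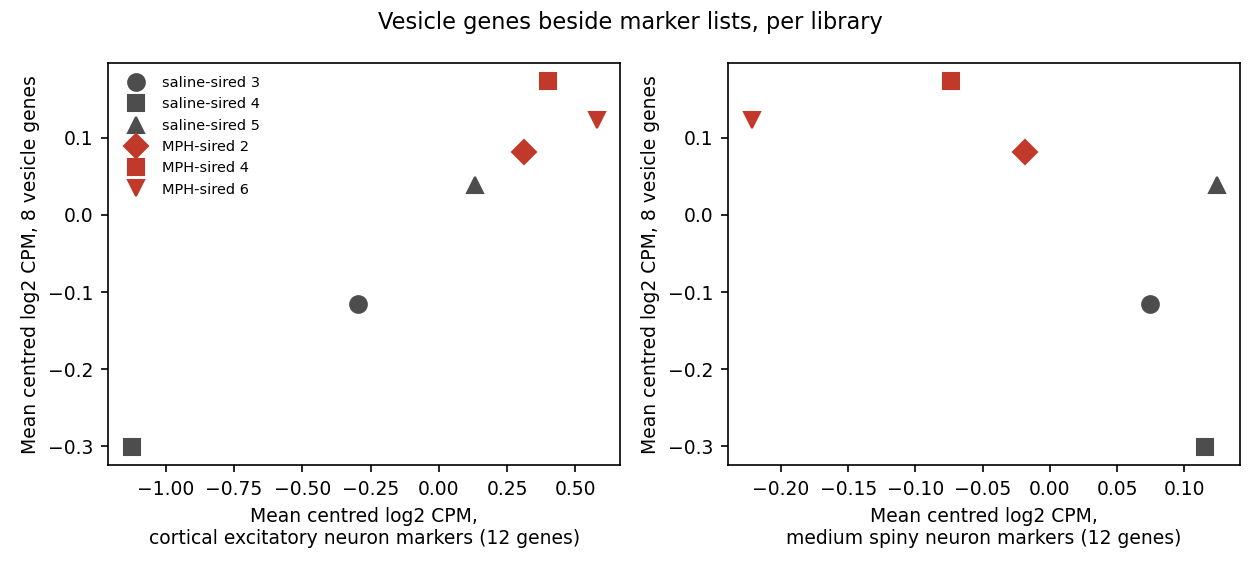
Mean centred log2 CPM of the 8 vesicle genes (vertical axis) against that of 12 cortical excitatory neuron markers (left) and 12 medium spiny neuron markers (right) in each library, saline-sired in grey and methylphenidate-sired (MPH) in red, with shapes for library numbers. Saline library 4 is lowest for the vesicle genes (-0.30) and for the cortical markers (-1.13), and methylphenidate library 6 is lowest for the medium spiny neuron markers (-0.22).

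Other cell markers mostly differed by library. The summed choroid plexus markers ran from 30.1 to 2125 CPM in the saline-sired and from 36.4 to 83.3 CPM in methylphenidate-sired offspring, with Ttr at 1905 CPM in saline library 3. All 8 had negative log2 fold changes, 7 of them at an unadjusted p under 0.05 and 0 past the edgeR or DESeq2 threshold. At that unadjusted p 3.95% of all genes were lower (edgeR). The groups overlapped in all 8 of these markers. Summed oligodendrocyte markers were highest in saline library 4 (13300 CPM, against 7025 to 9742 CPM in the other libraries), and so were astrocyte (1067 CPM) and microglia markers (364 CPM). Endothelial markers ran from 202 to 242 CPM in the saline-sired and from 194 to 240 CPM in methylphenidate-sired offspring. Interneuron markers ran from 786 to 929 and from 730 to 876 CPM, with Gad1 the most abundant. Of the 6 interneuron markers, 0 passed the edgeR test. In 2 of the 6 the groups did not overlap, in opposite directions, against 14.8% of all genes in either direction. Vip was higher (log2 fold change 0.92, SE 0.35, edgeR adjusted p = 0.493). Chat was lower (-0.33, SE 0.12, edgeR adjusted p = 0.491). Those of dopamine neurons, whose cell bodies lie outside the striatum, were low and did not overlap in sum. They summed to 12.8 to 15.8 CPM in saline-sired and 8.28 to 11.0 CPM in methylphenidate-sired offspring. All 3 tested had negative log2 fold changes and 0 passed the edgeR test. At an unadjusted p under 0.05 (edgeR) there was 1, against 3.95% of all genes lower. The groups did not overlap in 1 of the 3, against 7.01% of all genes lower. None of these lists had a member at 0 in all libraries, and their part in the vesicle gene values was not tested. Syn1 and Syp lie on the X chromosome. In the saline-sired group the library with Y-linked transcripts was the lowest in both genes, and in the methylphenidate-sired group it lay between the other 2 in both.

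For each vesicle gene, the 2 genes with the most similar log2 CPM over the 6 libraries were taken from 8312 genes of average log2 CPM of at least 4. The closest to Syn1 were Hecw1 and Car10 (Pearson r of 0.9975 and 0.9972), and to Syp they were Bmerb1 and Atp2b2, a plasma membrane calcium pump gene (0.9977 and 0.9974). Sv2b was closest to Nptxr, the neuronal pentraxin receptor gene, and Spon1 (0.9978 and 0.9971), Sncb to Disp2 and Sox5 (0.9980 and 0.9920), and Syn2 to Abr and Anxa7 (0.9987 and 0.9981). Sv2c was closest to Cers1 and Phactr1 (0.9944 and 0.9862), Syn3 to Pcdhga12 and Ppp1r1a (0.9878 and 0.9844), and Sv2a to Pgam1 and Ufc1 (0.9861 and 0.9739). With 6 libraries and so many genes such values describe these libraries only.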

How the data were processed

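Striatal RNA from 6 offspring was sequenced. Per the submitters' processing notes, bcl2fastq 2.20.0, Trimmomatic, HISAT2 2.1.0 and StringTie 2.1.3b were used with mm10. Their settings, any use of strand and the handling of multiply mapped reads are not stated in the labels or notes used here. The authors deposited whole-number read counts per gene, with NCBI Gene IDs, not normalized. A further 12 columns of other units were not used. Columns were tied to groups, not to labelled animals, so sex from the labels was not used; a term for the libraries with Y-linked transcripts was fitted as an alternative chosen after seeing the data. No library was a repeat of another (chi-square per gene at least 8.45). That lowest value was between saline library 5 and methylphenidate library 2. Saline library 5 was nearer to methylphenidate libraries 2, 4 and 6 (8.45, 18.0 and 18.9) than to saline libraries 3 and 4 (23.5 and 29.6).

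Counts were tested with edgeR 4.0.16 (R 4.3.3): filterByExpr, TMM, quasi-likelihood F test, Benjamini-Hochberg over 17874 genes, threshold 0.05. SE is the size of the log2 fold change over the square root of F. DESeq2 1.42.0, limma-voom (limma 3.58.1), other scaling, no filter and leaving out each library were alternatives. On simulated counts for this comparison (17874 genes), edgeR recovered 29.9%, 61.2% and 89.4% of genes changed by 0.5, 1 and 2 on the log2 scale, with 11 calls among 17674 unchanged genes. Exons, lengths and overlaps came from GENCODE M21. Apart from the Syn3 and Timp3 overlap, blastn 2.17.0 found no copy of a member with at least 95% identity over 200 bases. All 8 members are named, and of each list the text names genes past the test. Otherwise it names the 2 of lowest p for the pathway, cortical, medium spiny neuron and interneuron lists. Slc17a7, Ppp1r1b, Ttr, the TIMP genes, Gad1 and the vesicular transporters above were added. For the remaining marker lists the 2 of lowest p are not named. Members, lists and tests were chosen with earlier results of these data known.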

Additional observations from a re-analysis of the deposited data

How the results depend on the processing

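The directions of Syn1, Syn2, Sv2a, Sv2b, Syp and Sncb, and their side of the edgeR threshold, were kept under DESeq2 size factors, no filter and without each library. Over the leave-outs of 1 library, log2 fold changes ran from 0.28 to 0.51 (Syn1), 0.16 to 0.41 (Syn2), 0.0050 to 0.22 (Syn3), 0.022 to 0.16 (Sv2a), 0.22 to 0.68 (Sv2b), -0.12 to 0.046 (Sv2c), 0.28 to 0.46 (Syp) and 0.32 to 0.50 (Sncb). Between 1 and 4 genes passed the edgeR test, with 1 without methylphenidate library 6. DESeq2 called 175 genes and 3 members, at 0.38 (Syn1), 0.37 (Syp) and 0.40 (Sncb), and the cause of the difference between the tools was not tested. Alternatives chosen after seeing the data left out saline libraries 3 and 4, or both libraries numbered 4. In each, 0 genes passed the edgeR test (unadjusted p under 0.05 in 958 and 979), with fewer samples in both and, in the first, a lone saline-sired library assumed to vary like the others. The sign turned for Syn3 in both (-0.14 and -0.082), and for the median of the synapsin kinases and phosphatase in the first (-0.022). Without methylphenidate library 6 it turned for Sv2c (0.046) and for the Sv2a to Sv2c ratio, which ran from -0.025 to 0.251. With DESeq2 it turned for Syn3 without methylphenidate library 4 and for Sv2c without methylphenidate library 6, where the leave-outs gave adjusted p-values of 0.570 to 1.000 (0.999863) and 0.951 to 1.000 (0.999394 without library 6). No paired analysis was possible because the columns of the groups share only 1 number. The planned fit with the labelled sex was not run, since no label ties a column to an animal. With a term for the libraries with Y-linked transcripts, chosen after seeing the data, 2 genes passed the edgeR test and 0 members did, with Sv2b at 0.48 and Syn1 at 0.39.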
